A study of Mus musculus with 6 samples.

Results

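The genes described here are 10 of the TGF-beta pathway, chosen by symbol: the ligands Tgfb1 and Tgfb2, the latency protein gene Ltbp1, the receptors Tgfbr1, Tgfbr2 and Tgfbr3, the signal transducer Smad3, and the response genes Smad7, Skil and Tgfbi. Each symbol matched 1 of the 37991 Ensembl identifiers in the count tables. RNA sequencing covered 6 libraries from the cecum of 3 mice of the HBUS strain, numbered 1119, 1192 and 1199 and kept for 60 weeks. From each mouse came 1 serrated polyp library, and 1 library of the normal distal cecum around it. The strain has 2 transgenes active in the gut epithelium, 1 for US28, a chemokine receptor of viral origin, and 1 for the EGF receptor ligand HB-EGF, so polyp and surrounding tissue share both, and no tissue without them was compared.

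TGF-beta is made as a latent complex in which the growth factor stays bound to its own propeptide and, through latent TGF-beta binding proteins such as LTBP1, to the extracellular matrix. Once freed, often by integrins that carry the alpha-V subunit, it binds the type II receptor TGFBR2, which recruits and phosphorylates the type I receptor TGFBR1, which in turn phosphorylates SMAD2 and SMAD3. In the gut the pathway is known for restraining the growth of epithelium and for driving matrix production in fibroblasts.

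Library totals lay between 6632645 and 13350119 counts, of which the mitochondrial rRNAs took 46.3% to 75.3%. The labels' protocols describe treatment of the RNA with a kit that removes mammalian RNA, so the mouse counts may come from what that step left. The libraries that needed the largest corrections for composition were the polyp of mouse 1192 (TMM factor 1.43) and the surrounding tissue of mouse 1199 (0.593), and results are therefore also given without these mice. Levels are in CPM, that is counts over a library size corrected for composition, scaled to 1000000, in the order of mice 1119, 1192 and 1199, or as mean ± SD over the 3 mice. Summed over 10 general epithelial marker genes, the lowest polyp held 5775 CPM and the lowest surrounding sample 3447 CPM. Over 8 genes of absorptive colonocytes the lowest sums were 9695 CPM in polyps and 12083.5 CPM in surrounding tissue. Both tissues thus carried transcripts of gut epithelium. Each log2 fold change sets polyps over surrounding tissue and has its SE (n = 3 pairs). It comes from edgeR's quasi-likelihood test, in which the mouse was a block, and a gene is said to rise or fall at a Benjamini-Hochberg adjusted p under 0.05.

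Polyps held more transcript of the type II receptor and of the TGF-beta-induced matrix protein gene Tgfbi. The type I receptor and the feedback inhibitors Smad7 and Skil had log2 fold changes of 0.09, 0.08 and 0.18 and did not pass. Smad3 did not pass either, with 0.84, 1.46 and 1.50 times the surrounding level in mice 1119, 1192 and 1199. Among the 10 genes, 9 had enough counts to be tested, and Tgfb2 had not. Of these 9, 2 rose (Tgfbr2 and Tgfbi), against 1.72% of the 10960 genes tested, and 0 fell, against 1.04%. At an unadjusted p under 0.05 in edgeR 1 of them was lower (Tgfbr3), and DESeq2 and limma-voom also called 0 lower. Their median log2 fold change was 0.29, beside -0.02 over all genes tested. The 10 genes were chosen with earlier results of these data known. Their share of calls and their median are therefore no separate support for a change of the pathway. Every polyp library lay above every surrounding library for Tgfbr2, Tgfbi and Tgfb1, which 9.84% of tested genes also did. Every polyp library lay below every surrounding library for Tgfbr3, which 8.58% of tested genes also did. Tgfb1 would not have passed the filter on low counts by its surrounding libraries alone, nor Tgfbr3 by its polyp libraries alone. For these genes being tested thus depended on the tissue where each was higher, and the lack of overlap is no separate support. The samples were whole tissue, in which more cells of a type and more RNA per cell cannot be told apart.

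**Figure D1:**
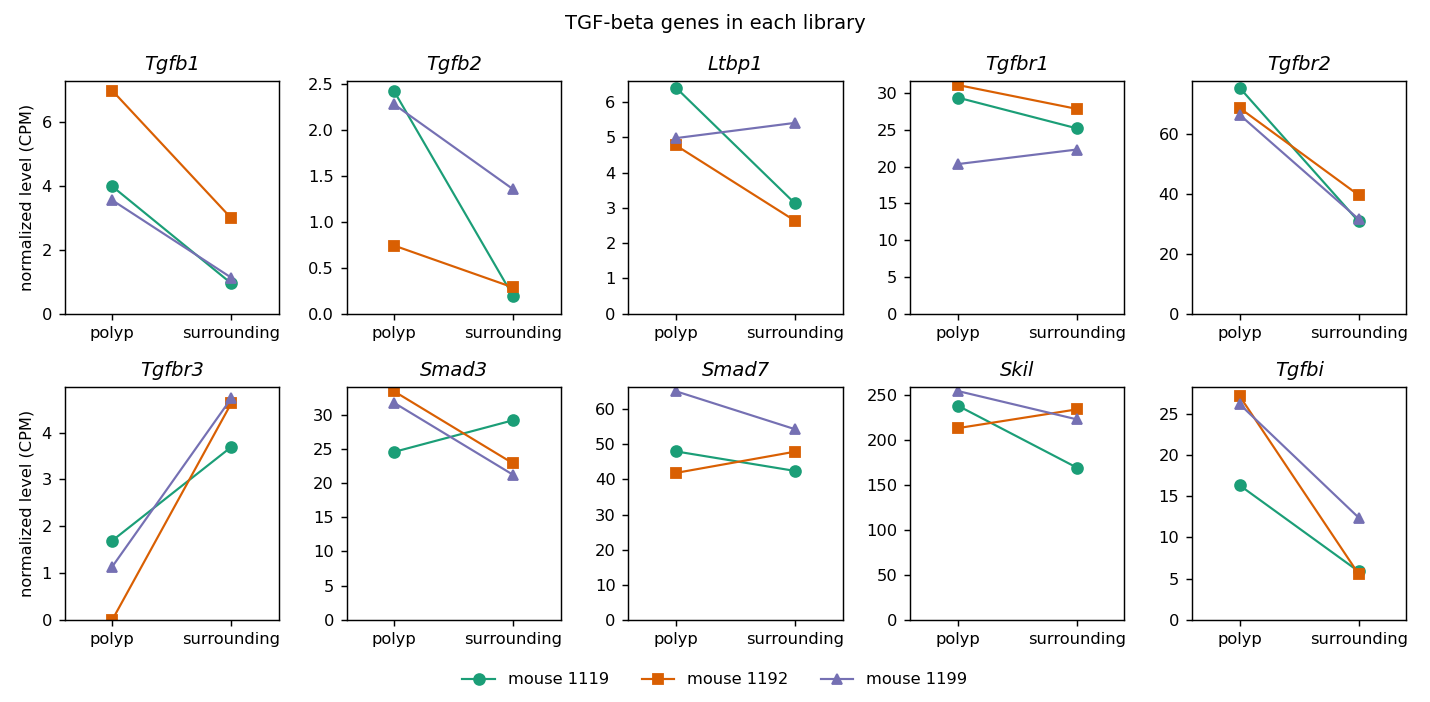
Normalized level (CPM, linear axis from 0) of each of the 10 genes in the polyp and the surrounding tissue, with lines joining the libraries of 1 mouse. Tgfbr2 lies between 66.4 and 75.4 CPM in polyps and between 30.8 and 39.6 CPM in surrounding tissue, and Tgfbr3 is the gene whose lines all run the other way.

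Tgfbr2 (ENSMUSG00000032440), the type II receptor that binds the ligand, stood at 75.4, 68.7 and 66.4 CPM in polyps, against 30.8, 39.6 and 31.6 CPM in surrounding tissue. The polyps formed a narrow group well above the surrounding samples, and each polyp had between 1.73 and 2.45 times the CPM of its own surrounding tissue. It rose 2.07-fold, with 70.2 ± 4.70 CPM in polyps and 34.0 ± 4.88 CPM in surrounding tissue (log2 fold change 1.05 ± 0.17, edgeR adjusted p = 0.0174). Without mouse 1119 or mouse 1199 it missed the threshold (edgeR adjusted p = 0.097 and 0.133), although its log2 fold change was 0.92 and 1.03, and without mouse 1192 it passed (adjusted p = 0.0165).

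Tgfbr1 (ENSMUSG00000007613), the type I receptor and kinase that phosphorylates the receptor-regulated Smads, stood at 29.4, 31.1 and 20.3 CPM in polyps, against 25.2, 27.8 and 22.3 CPM in surrounding tissue. The groups overlapped, and the polyp was higher in 2 of 3 mice. The fitted log2 fold change was 0.09 ± 0.19 (edgeR adjusted p = 0.877). Both receptors were measured in the same libraries, so their ratio does not depend on how libraries were scaled. Per kilobase of exon, Tgfbr2 had 2.05, 1.76 and 2.61 times the level of Tgfbr1 in polyps, against 0.975, 1.13 and 1.13 times in surrounding tissue. The receptors were thus about level around the polyps, and in each polyp Tgfbr2 was ahead. The ratio was higher in the polyp in 3 of 3 mice, by 0.97 ± 0.30 on the log2 scale (mean ± SD, n = 3 pairs), with an exact two-sided sign-flip p = 0.25, the smallest that 3 pairs allow. It is 1 of 3 ratios tested, and adjusted over these its p was 0.375. The ratio rests on the same counts as the call of Tgfbr2, so it is no separate support for that rise.

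Tgfbr3 (ENSMUSG00000029287), the co-receptor betaglycan that presents ligand to the type II receptor, was at low counts. They were 14, 0 and 8 in polyps, against 39, 65 and 21 in surrounding tissue, or 1.69, 0 and 1.14 CPM against 3.69, 4.63 and 4.73 CPM. The polyp of mouse 1192 held no read of it, which at that library's depth allows up to 0.247 CPM (3 counts, counting error only). It was lower in 3 of 3 mice and the groups did not overlap, but the test was not passed (log2 fold change -2.69 ± 1.11, edgeR adjusted p = 0.307). This fitted value leans on the library without reads, since without mouse 1192 it was -1.58 (adjusted p = 0.298). Markers of smooth muscle, summed over 8 genes, were lower in the same polyps, at 60.3, 139 and 113 CPM in polyps and 236, 256 and 252 CPM in surrounding tissue. Their part in the lower Tgfbr3 was not tested.

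Of the ligands, Tgfb1 (ENSMUSG00000002603), the main form of epithelial and immune tissue, stood at 3.99, 6.99 and 3.56 CPM in polyps, against 0.947, 2.99 and 1.13 CPM in surrounding tissue. Each polyp was above every surrounding sample and had 2.34 to 4.21 times its own surrounding level. Counts behind these values were low, 33, 85 and 25 in polyps and 10, 42 and 5 in surrounding tissue, and Tgfb1 did not pass (log2 fold change 1.62 ± 0.56, edgeR adjusted p = 0.207). Its size was close to that of Tgfbi, which passed at a level several times higher. Tgfb2 (ENSMUSG00000039239), a second ligand isoform that needs betaglycan for strong binding to the type II receptor, had 20, 9 and 16 counts in polyps, against 2, 4 and 6 in surrounding tissue. That is 2.42, 0.740 and 2.28 CPM in polyps and 0.189, 0.285 and 1.35 CPM in surrounding tissue, higher in the polyp in 3 of 3 mice although the groups overlapped. Fitted without a filter on low counts, its log2 fold change was 1.82 ± 1.47 (edgeR adjusted p = 0.914). With genes above 1% of a library left out Tgfb2 did pass the filter (1.80 ± 1.20, edgeR adjusted p = 0.574). It also did so without mouse 1192 (1.96 ± 1.05, edgeR adjusted p = 0.464).

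Ltbp1 (ENSMUSG00000001870), which tethers latent TGF-beta to the matrix, stood at 6.41, 4.77 and 4.98 CPM in polyps, against 3.13, 2.63 and 5.41 CPM in surrounding tissue. It was higher in the polyp in 2 of 3 mice and about level in mouse 1199. The groups overlapped and the test was not passed (log2 fold change 0.60 ± 0.46, edgeR adjusted p = 0.623).

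Smad3 (ENSMUSG00000032402), the receptor-activated transcription factor of the pathway, stood at 24.5, 33.4 and 31.7 CPM in polyps, against 29.2, 22.9 and 21.2 CPM in surrounding tissue. In mouse 1119 the polyp was the lower sample and in the other mice the higher one, so the groups overlapped (log2 fold change 0.29 ± 0.22, edgeR adjusted p = 0.629). Smad7 (ENSMUSG00000025880) is induced by the pathway and blocks the type I receptor. Its levels were 48.0, 41.9 and 65.1 CPM in polyps, against 42.4, 47.9 and 54.3 CPM in surrounding tissue. Polyp and surrounding samples were interleaved, with a log2 fold change of 0.08 ± 0.17 (edgeR adjusted p = 0.874), and without mouse 1199 the sign turned (-0.026). Skil (ENSMUSG00000027660) encodes SnoN, a repressor that binds Smads and is itself a rapid target of TGF-beta. It stood at 238, 213 and 255 CPM in polyps, against 169, 234 and 223 CPM in surrounding tissue, again with overlapping groups (log2 fold change 0.18 ± 0.16, edgeR adjusted p = 0.669). Neither Smad7 nor Skil thus differed beyond the spread between mice. Pmepa1, another TGF-beta-induced inhibitor described below, did rise.

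Tgfbi (ENSMUSG00000035493), a secreted matrix protein that cells adhere to and that TGF-beta induces, stood at 16.3, 27.1 and 26.2 CPM in polyps, against 5.87, 5.55 and 12.4 CPM in surrounding tissue. All polyps were above all surrounding samples, and the smallest step was in mouse 1199, whose surrounding tissue was the highest of its group. It rose 3.08-fold, with 23.2 ± 5.99 CPM in polyps and 7.94 ± 3.86 CPM in surrounding tissue (log2 fold change 1.62 ± 0.30, edgeR adjusted p = 0.0283). Without mouse 1119, 1192 or 1199 it missed the threshold (adjusted p = 0.0984, 0.0531 and 0.114, log2 fold change 1.69, 1.24 and 1.87), and without the mouse as a block too (adjusted p = 0.0834). Relative to Skil in the same libraries, Tgfbi per kilobase was at 0.176, 0.327 and 0.264 in polyps, against 0.0891, 0.0609 and 0.143 in surrounding tissue. That ratio was higher in the polyp in 3 of 3 mice, by 1.43 ± 0.86 on the log2 scale (exact two-sided sign-flip p = 0.25, adjusted 0.375). It too rests on the counts behind the call of Tgfbi and is no separate support. The ratio of Smad7 to Smad3 was higher in the polyp in 1 of 3 mice, with a mean log2 difference of -0.21 ± 0.59 (exact p = 0.75).

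**Figure D2:**
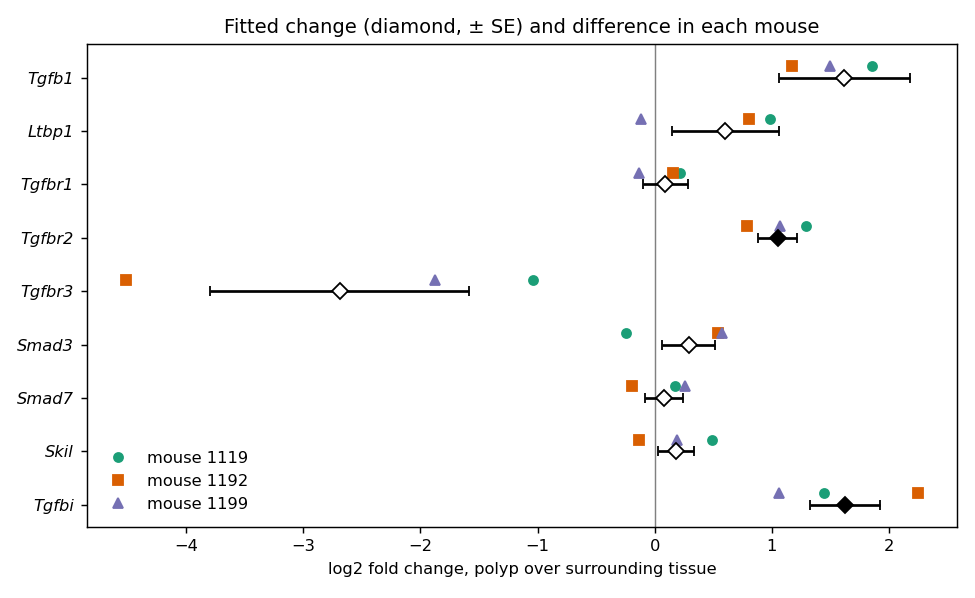
Fitted log2 fold change, polyp over surrounding tissue, of the 9 tested genes (diamonds with SE, filled where edgeR's adjusted p was under 0.05), with the log2 difference within each mouse as coloured points above each diamond. Tgfbr2 at 1.05 and Tgfbi at 1.62 are filled, Tgfbr1, Smad7 and Skil lie within 0.2 of zero, and Tgfbr3 has the widest spread between mice.

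The promoters of the 2 genes that rose are shown as those of the members called higher, 1 a receptor and the other a response gene. RefSeq's table (GRCm38.p6) held promoter windows, 250 bases before to 50 bases after the transcript start, for 7 of the 10 genes. The window of Tgfbr2 is chr9:116175314-116175613 on the minus strand and that of Tgfbi is chr13:56609336-56609635 on the plus strand. Capitals mark CAGAC, the core that Smad proteins bind, read on either strand (GTCTG on the other).
Tgfbr2: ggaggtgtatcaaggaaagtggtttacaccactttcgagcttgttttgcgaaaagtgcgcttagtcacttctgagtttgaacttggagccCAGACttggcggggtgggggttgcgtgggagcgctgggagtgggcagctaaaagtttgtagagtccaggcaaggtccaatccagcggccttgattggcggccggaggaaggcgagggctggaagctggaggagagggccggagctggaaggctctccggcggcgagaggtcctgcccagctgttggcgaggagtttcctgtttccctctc
Tgfbi: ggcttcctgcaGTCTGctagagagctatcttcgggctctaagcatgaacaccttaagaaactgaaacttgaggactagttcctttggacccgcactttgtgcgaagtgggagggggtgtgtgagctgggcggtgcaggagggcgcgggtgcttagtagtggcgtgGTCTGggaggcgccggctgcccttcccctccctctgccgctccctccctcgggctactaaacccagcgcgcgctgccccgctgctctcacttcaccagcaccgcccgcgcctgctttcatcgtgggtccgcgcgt
Tgfbr2 had 1 match, which begins 160 bases before the start. Tgfbi had 2, at 239 and 85 bases before it. Of all 32851 windows in the table, 49.6% hold at least 1 such match, so its presence is common. Matches also stood in the windows of Ltbp1 and Tgfb2 and in 1 of 2 windows of Tgfbr1, none of which is among the genes that rose, and not in those of Tgfb1 and Smad3. Neither printed window held the longer Smad motifs GTCTAGAC (0.213% of all windows) or AGCCAGACA (0.387%), or the AP-1 motif TGANTCA (7.81%), with both strands searched. GC content was 59.0% for Tgfbr2 and 63.3% for Tgfbi, against a median of 52.7% over all windows.

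Levels can be ordered across genes only per length, here as CPM per kilobase of exon. In polyps Skil was highest at 24.3 ± 2.15, followed by Smad7 at 11.4 ± 2.67, Tgfbr2 at 8.57 ± 0.574, Tgfbi at 6.15 ± 1.59, Smad3 at 5.39 ± 0.848 and Tgfbr1 at 4.12 ± 0.884 CPM per kilobase. Tgfb1 at 0.961 ± 0.371, Ltbp1 at 0.504 ± 0.0834, Tgfb2 at 0.313 ± 0.161 and Tgfbr3 at 0.144 ± 0.132 CPM per kilobase made a lower tier. In that order the ranges of Tgfbi and Smad3, of Smad3 and Tgfbr1, and of Tgfb2 and Tgfbr3 overlapped, and those of the other neighbours did not. In surrounding tissue Skil (21.6 ± 3.58) and Smad7 (10.7 ± 1.32) again led, and Smad3 (4.40 ± 0.760), Tgfbr2 (4.15 ± 0.596) and Tgfbr1 (3.84 ± 0.423) formed a group in which the ranges of neighbours overlapped. Tgfbi (2.11 ± 1.02) and Tgfbr3 (0.665 ± 0.0874) came next and stood clear of their neighbours, and Ltbp1 (0.348 ± 0.139), Tgfb1 (0.335 ± 0.224) and Tgfb2 (0.105 ± 0.111) closed the order with overlapping ranges. Tgfb1 in the surrounding tissue of mouse 1192 (0.593) nonetheless lay above Tgfbr3 in that of mouse 1119 (0.564). By its mean Tgfbr3 held place 10 in polyps, against place 7 in surrounding tissue, and Tgfbr2 place 3 in polyps, against place 4 in surrounding tissue.

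Other genes of the pathway were read from lists of 45 genes, chosen with earlier results of these data known, of which 38 were tested. Of these 4 rose and 0 fell, against 1.72% and 1.04% of the 10960 genes tested, shares that also apply to the shorter lists below. At an unadjusted p under 0.05 in edgeR 13 were higher and 1 lower. DESeq2 called 10 higher and 1 lower, and limma-voom 7 and 0. Their median log2 fold change was 0.19. Over all genes tested DESeq2 called 326 higher and 215 lower, and limma-voom 252 and 159. Of the other ligands and the genes for ligand release and activation, 2 of 11 tested rose and 0 fell, with 0 lower at an unadjusted p under 0.05 in edgeR and 0 in DESeq2 or limma-voom, and the median was 1.04. Itgav (ENSMUSG00000027087), the alpha-V integrin subunit, stood at 575, 482 and 623 CPM in polyps, against 230.3, 199 and 434 CPM in surrounding tissue. It rose 2.06-fold and its groups did not overlap (edgeR adjusted p = 0.0242). Itgb8 (ENSMUSG00000025321), which pairs with alpha-V to free latent TGF-beta, stood at 10.2, 17.8 and 10.2 CPM in polyps, against 1.52, 3.28 and 5.18 CPM in surrounding tissue. It rose 4.18-fold (adjusted p = 0.0419). Itgb6, the epithelial partner of alpha-V that also activates TGF-beta, is named after its values were seen: it had 189.96 ± 41.7 CPM in polyps and 116 ± 33.8 CPM in surrounding tissue and just missed the threshold (log2 fold change 0.72 ± 0.16, edgeR adjusted p = 0.052). Itgav missed it without mouse 1119 or 1192 (adjusted p = 0.112 and 0.101), and Itgb8 without any 1 of the 3 mice (adjusted p between 0.0718 and 0.186) or with a spread estimated without robustness (adjusted p = 0.0526), and both without the block for the mouse (adjusted p = 0.171 and 0.0893).

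The list of receptors, co-receptors and associated proteins outside the 10 genes had 6 tested. Of these 1 rose, a matrix proteoglycan and not a receptor, and 0 fell. Bgn (ENSMUSG00000031375), the matrix proteoglycan biglycan that can bind TGF-beta, stood at 22.9, 20.1 and 25.5 CPM in polyps, against 7.77, 5.98 and 7.44 CPM in surrounding tissue. It rose 3.22-fold with no overlap (edgeR adjusted p = 0.0153), and without mouse 1119 or 1199 it missed the threshold (adjusted p = 0.071 and 0.121). Of 9 tested Smads and their partners 0 rose and 0 fell, with 0 at an unadjusted p under 0.05 in edgeR and 0 in DESeq2 or limma-voom, and the median log2 fold change was 0.00. The smallest p in that list belonged to Dab2, an endocytic adaptor of the receptors (log2 fold change 0.95 ± 0.44, edgeR adjusted p = 0.383), Zfyve9, the Smad anchor SARA (-0.42 ± 0.21, adjusted p = 0.422), and Fkbp1a, which binds the type I receptor (0.18 ± 0.15, adjusted p = 0.656).

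Inhibitors and turnover genes had 1 of 12 higher and 0 lower, with 1 lower at an unadjusted p under 0.05 in edgeR, 1 in DESeq2 and 0 in limma-voom (Nedd4l, a ubiquitin ligase of Smads, log2 fold change -0.97 ± 0.26, edgeR adjusted p = 0.109). The gene that rose was Pmepa1 (ENSMUSG00000038400), a TGF-beta-induced membrane protein that sequesters receptor-regulated Smads. It stood at 111, 51.5 and 99.3 CPM in polyps, against 13.7, 9.26 and 43.95 CPM in surrounding tissue. All polyps lay above all surrounding samples, the closest being the polyp of mouse 1192 and the surrounding tissue of mouse 1199. The rise was 4.67-fold (log2 fold change 2.22 ± 0.33, edgeR adjusted p = 0.019), and it missed the threshold without mouse 1192 (adjusted p = 0.162) and without the block (adjusted p = 0.299).

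Known response genes outside the 10 were read from lists of 30 genes, also chosen with earlier results of these data known. Of these 23 were tested, 7 rose and 1 fell, against 1.72% and 1.04% of all genes tested, with a median log2 fold change of 0.79. In the matrix and contractile list 6 of 14 rose and 1 fell. The matrix genes Col1a1, Col1a2, Col3a1, Fn1 and Sparc rose between 3.37-fold (Fn1) and 4.97-fold (Col1a1), at edgeR adjusted p = 0.00173 to 0.00777. The groups of Col1a1 overlapped, since the polyp of mouse 1192 (24.1 CPM) lay below the surrounding tissue of mouse 1199 (25.5 CPM). Without the block Col1a1 and Col3a1 missed the threshold (edgeR adjusted p = 0.273 and 0.13). The gene that fell was Tagln (ENSMUSG00000032085), the actin-binding protein of smooth muscle and myofibroblasts, with 3.39, 6.66 and 7.68 CPM in polyps, against 28.3, 26.1 and 28.4 CPM in surrounding tissue (log2 fold change -2.28 ± 0.30, edgeR adjusted p = 0.0116, and 0.0513 without mouse 1199). The matrix genes that rose and the contractile gene that fell thus moved in opposite directions in each mouse. In the cell cycle and transcription list 1 of 9 rose, Bhlhe40, a transcription factor (log2 fold change 0.92 ± 0.16, edgeR adjusted p = 0.0247), and 0 fell, with 0 lower at an unadjusted p under 0.05 in edgeR and 0 in DESeq2 or limma-voom. Bhlhe40 missed the threshold without any 1 mouse (adjusted p between 0.058 and 0.13) and without the block (0.0724). Cdkn2b, a cell cycle inhibitor known as a TGF-beta target and named after its values were seen, had 11.6 ± 1.75 CPM in polyps and 6.0002 ± 1.24 CPM in surrounding tissue, without passing (log2 fold change 0.97 ± 0.34, edgeR adjusted p = 0.209). Foxh1, a Smad partner, and Zeb1, a transcription factor, had no count in any library.

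**Figure D3:**
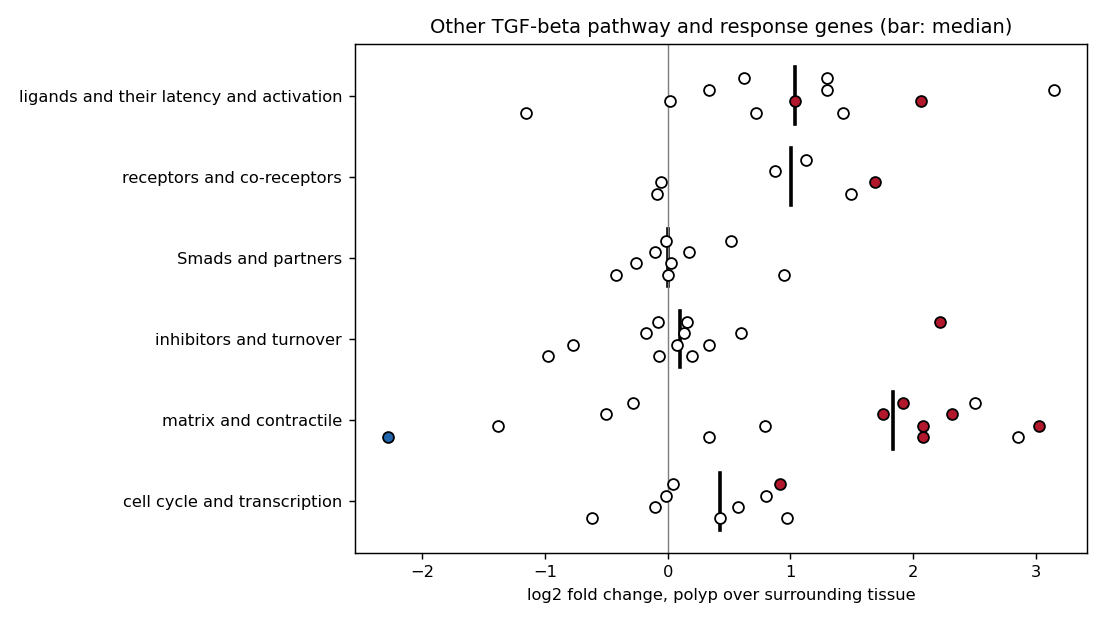
Log2 fold change, polyp over surrounding tissue, of every tested gene of the 6 lists of other pathway and response genes (red, higher and blue, lower at an edgeR adjusted p under 0.05, open otherwise), with a bar at each list's median. The medians are 1.04 for ligand release and activation, 0.00 for Smads and partners and 1.84 for the matrix and contractile list.

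Marker sums of several cell types differed between polyp and surrounding tissue in each mouse, while few of the markers passed the test singly. Fibroblast markers (10 genes, all tested) summed to 180.1, 161 and 203 CPM in polyps, against 102, 82.7 and 111 CPM in surrounding tissue, higher in 3 of 3 mice, and 1 of 10 passed singly, Pdgfra (log2 fold change 1.59, edgeR adjusted p = 0.0194). Lum, Thy1 and Dpt of that list had log2 fold changes of 0.03, 0.02 and -0.93. The call of Pdgfra was absent without mouse 1119 or 1199. Epithelial markers summed to 5945, 5775 and 7729.9 CPM in polyps, against 3908, 3447 and 6063 CPM in surrounding tissue. The keratin genes Krt8, Krt18 and Krt19 passed among 10, of which Krt18 passed with any 1 mouse left out and 0 passed without the block. The list did not move as 1, since 2 of the 10 had negative log2 fold changes (the lowest -0.59) and the median was 0.35. At an unadjusted p under 0.05 in edgeR 5 were higher and 1 lower. Endothelial markers, at 38.6, 14.7 and 39.1 CPM in polyps and 16.3, 7.97 and 16.5 CPM in surrounding tissue, and macrophage and monocyte markers, at 54.8, 48.03 and 66.4 CPM in polyps and 27.0, 33.7 and 52.5 CPM in surrounding tissue, summed higher in 3 of 3 mice. Of 5 tested endothelial and 8 tested macrophage and monocyte markers 0 passed in edgeR, DESeq2 or limma-voom, with 2 of each list higher and 0 lower at an unadjusted p under 0.05 in edgeR. Kdr, Csf1r and Itgam were lower in the polyp of mouse 1192, at 0.289, 0.458 and 0.347 times its surrounding CPM, and C1qa had a log2 fold change of -1.01. Smooth muscle markers were lower in each mouse, with 1 of 7 tested passing (Synpo2, which missed the threshold without mouse 1119 or 1199 and without the block). T cell markers summed to at most 3.41 CPM in polyps and 10.8 CPM in surrounding tissue, and Cd3g had no count in any polyp. Absorptive colonocyte markers summed lower in the polyp in 2 of 3 mice, and higher in mouse 1192 (13083 CPM, against 12083.5 CPM in surrounding tissue). Gene by gene all 8 had negative log2 fold changes, with median differences of -1.63, -0.31 and -0.42 in mice 1119, 1192 and 1199. Of the 8, 3 passed (Slc26a3, Car4 and Aqp8), of which 1 passed without mouse 1199. The part of any of these cell types in the rise of Tgfbr2, Tgfbi and the matrix genes was not tested.

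**Figure D4:**
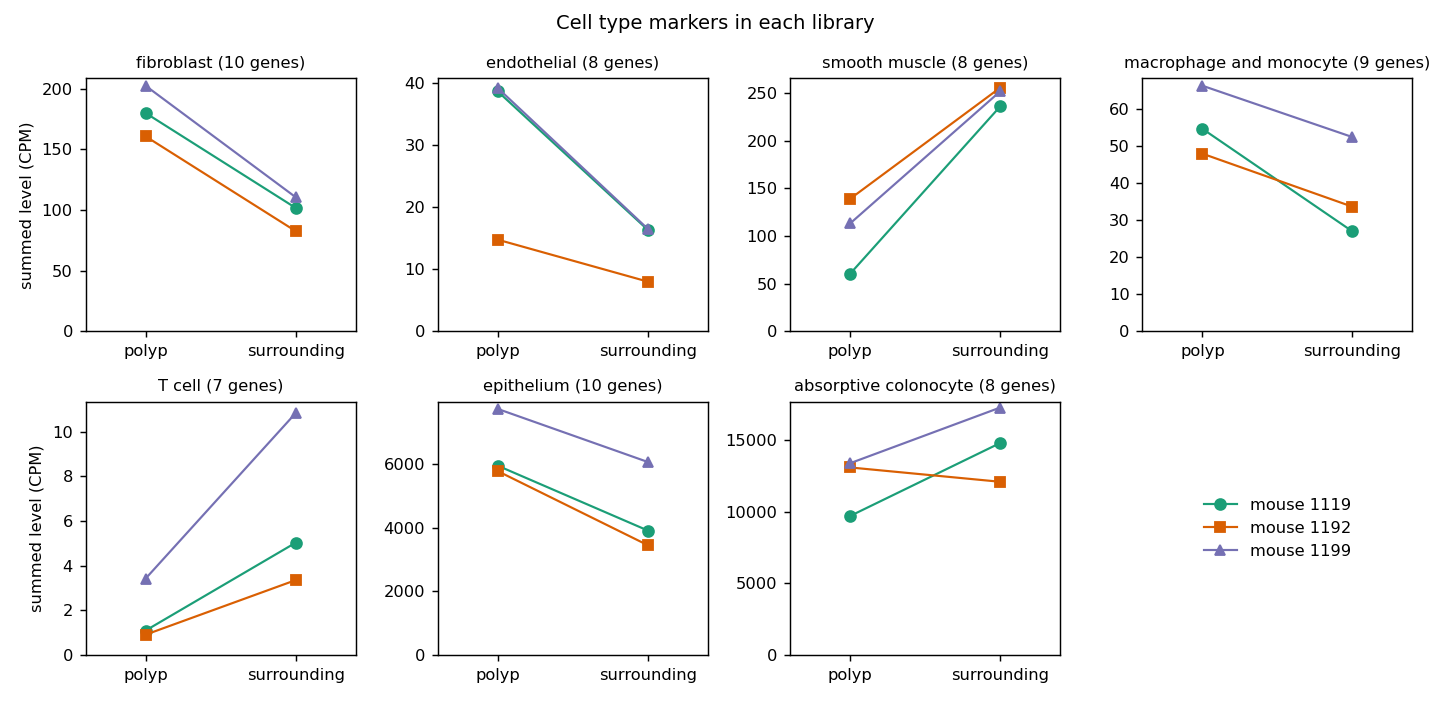
Summed level (CPM, linear axis from 0) of 7 lists of cell type markers in the polyp and the surrounding tissue, with lines joining the libraries of 1 mouse. Fibroblast sums lie at 161 to 203 CPM in polyps and 82.7 to 111 CPM in surrounding tissue, while smooth muscle sums lie at 60.3 to 139 CPM in polyps and 236 to 256 CPM in surrounding tissue.

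The genes whose profile over the 6 libraries came nearest to that of Tgfbr2, by root mean square distance between centred log2 CPM among 5786 candidates, were Myadm (0.102), Wwc1 (0.134) and Arid3a (0.158). For Tgfbi they were Fhl2 (0.198), Egr1 (0.199) and Rab31 (0.238). Each set was picked for this likeness from the same libraries, so the fold changes these genes share with Tgfbr2 or Tgfbi are no separate result.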

How the data were processed

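The values deposited are raw counts per gene, 1 table per library, to which the authors applied no normalization per the file headers. The submitters' processing notes list HTSeq 0.5.3p9, TopHat2 2.0.7 and Bowtie 0.12.9. The sources used here do not give settings, genome build, annotation release or strandedness. GENCODE M21 supplied names for 32919 of 37991 identifiers and exon lengths. In it, exons of Tgfb2 overlap an antisense gene and those of Tgfbr3 another gene model, neither counted separately here.

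The test was edgeR 4.0.16 in R 4.3.3 (quasi-likelihood, robust, two-sided, TMM, filterByExpr at a minimum count of 10, 10960 genes). The mouse was a block: the design is described as paired and titles carry the mouse number. Deviations from tissue means correlated at 0.0719, 0.127 and 0.159 within mice 1119, 1192 and 1199. The design left 2 residual degrees of freedom, with a common biological coefficient of variation of 34.3%. SEs were derived from the test statistic. Counts of replicates varied beyond sampling noise, so each was kept as its own sample. On simulated data with known changes, drawn without differences between mice, the share of false calls exceeded the nominal threshold. Most of the smaller changes and part of the larger ones were missed. A single call near the threshold and a gene that did not pass are both to be read with that limit.

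Differences within a mouse used log2 CPM with a prior count of 2. The members and lists were chosen with earlier results of these data known. Named list genes were every called gene, or in a list without one the 3 with the smallest p; Itgb6, Nedd4l and Cdkn2b were named after their values were seen. Of the genes this rule names, 1 is not reported here. The genes nearest in profile were the 3 per called member among named protein-coding genes with a mean log2 CPM of at least 3. Alternatives were no block, RLE and upper-quartile factors, removal of genes above 1% of a library, no filter, a mean of at least 5 CPM, no robust spread, DESeq2 1.42.0, limma-voom (limma 3.58.1) and leaving out each mouse. Figures were drawn with Python 3.11.15 and matplotlib 3.10.9.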

Additional observations from a re-analysis of the deposited data

How the results depend on the processing

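Of the alternatives run for the 9 tested genes, 98 values kept the direction and the side of the threshold, 6 lost the call (Tgfbr2 and Tgfbi, with the values given above) and 1 reversed, Smad7 without mouse 1199 (from -0.026 to 0.18 with 1 mouse left out). Tgfb1 ran between 1.39 and 1.84 and Tgfbr3 between -3.86 and -1.58 on the log2 scale without passing. The members higher numbered 1 without the replicate block (Tgfbr2) and 0 to 1 with 1 mouse left out. Over all genes, 189 were higher and 114 lower. Without the block for the mouse these were 51 and 36, with no filter on low counts 442 and 311, in DESeq2 326 and 215, and a mean of at least 5 CPM gave 178 lower. With 1 mouse left out they ran from 45 to 153 higher and from 21 to 128 lower. Pathway genes higher, 4 in the fit reported, were 1 without the block, 10 with no filter, 8 at 5 CPM, 10 in DESeq2, 7 in limma-voom and 1 to 3 with 1 mouse left out. Pathway genes lower were 1 with no filter, 1 in DESeq2 and 0 to 1 with 1 mouse left out. Response genes higher were 4 without the block and 5 to 7 with 1 mouse left out, against 7. Response genes lower were 2 with no filter, 2 at 5 CPM, 2 in DESeq2, 2 in limma-voom and 0 to 2 with 1 mouse left out, against 1. Fits with a mouse left out rest on fewer samples; the cause of the other shifts was not tested. Counts were at most 85 per library for Tgfb1, 20 for Tgfb2 and 65 for Tgfbr3.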
